A study of Arabidopsis thaliana with 6 samples.

Results

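The genes described here remove active auxin. They are GH3.1, GH3.3, WES1 (also called GH3.5) and GH3.17, which couple auxin to amino acids, and AT1G14120 and AT1G14130, which encode auxin oxidases. The 6 genes were chosen by symbol or locus in the array's annotation, with earlier results of these data known. Each of the genes has 1 probe set among the 22746 that were tested. They were measured in lateral root cap cells, isolated by fluorescence sorting of the enhancer trap line J2632 from roots of Arabidopsis thaliana ecotype C24 seedlings grown for 5 days. All plants carried UAS::ARR1ΔDDK-GR driven by J2632, a fusion of the cytokinin response factor ARR1, without its restraining domain, to the glucocorticoid receptor, which dexamethasone releases into the nucleus. The groups were untreated seedlings, seedlings after 1 h of dexamethasone and seedlings after 4 h of dexamethasone, with 2 biological replicates and so 2 arrays each. No group lacked the fusion or received a mock treatment, so the fusion's action, dexamethasone itself and the hours passed cannot be told apart.

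Plants lower the level of active auxin by several routes. Certain GH3 enzymes attach an amino acid to the auxin molecule. Some of these conjugates can be cleaved to give auxin back, while others feed degradation, and auxin oxidases convert auxin to an inactive oxidised form. In Arabidopsis, GH3.1, GH3.3 and GH3.5 are among the GH3 genes that auxin itself induces, and GH3.17 is known for a preference for glutamate as the amino acid. Cytokinin acts through type-B response regulators such as ARR1, and the comparisons ask whether genes of auxin inactivation respond in the lateral root cap once ARR1 is active.

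The genes lie on chromosomes 1, 2 and 4 of the TAIR10.1 assembly. GH3.17 (AT1G28130, probe set 259596_at) spans chr1:9825169-9828118, GH3.1 (AT2G14960, 266611_at) chr2:6451319-6453797, GH3.3 (AT2G23170, 245076_at) chr2:9863855-9866562 and WES1 (AT4G27260, 253908_at) chr4:13653579-13656285. The oxidase genes are neighbours: AT1G14120 (262608_at) ends at position 4835089 of chromosome 1, and AT1G14130 (262653_at) starts 634 bases further on and ends at 4837771. Whether a probe set also binds transcripts of a related gene was not tested.

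The 6 arrays were alike in overall signal, and background limited what could be measured for some of these genes. Background on an array was taken as the 95th percentile of its 27 Bacillus subtilis control probe sets, which lay between 29.1 and 47.1 intensity units and was highest on the 1 h arrays. Correlations of log2 signals were 0.957 to 0.972 between arrays of a group and 0.953 to 0.969 between arrays of different groups. For GAPDH, whose 3′ to 5′ signal ratio reflects RNA quality, the arrays gave 3.11 to 4.65. For actin that ratio spanned 2.29 to 5.12 and was 2.73 and 5.12 in the untreated replicates. Of the root cap markers, 2 of 7 had a named probe set, the polygalacturonase gene AT1G65570 and scpl48, and both exceeded background on all 6 arrays. The defining root cap regulators SMB, BRN1, BRN2 and FEZ were not analysed here. Few markers of other root cells were measured: 2 of 5 for root hair and epidermis, 1 of 2 for cortex and 1 of 4 for endodermis. For the quiescent centre it was 1 of 2, and for stele and phloem 0 of 4. Those measured were at or near background: EXPA7, AT1G62500 and AGL42 on every array, and EXPA18 and GSO1 above it on 2 and 3 of 6 arrays. In such samples, fewer cells of a type and less RNA per cell cannot be told apart.

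No change at 4 h was called in any of the 6 genes, although GH3.17 stood well above its earlier level on both late arrays. Calls were rare in general, with 1 of 22746 probe sets at 4 h against untreated. GH3.1, GH3.17, WES1 and AT1G14130 exceeded background on all 6 arrays, GH3.3 on the 2 untreated arrays alone and AT1G14120 on none. Throughout, single values are deposited intensities, while group means, differences and their errors are on the log2 scale after quantile normalization.

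**Figure D1:**
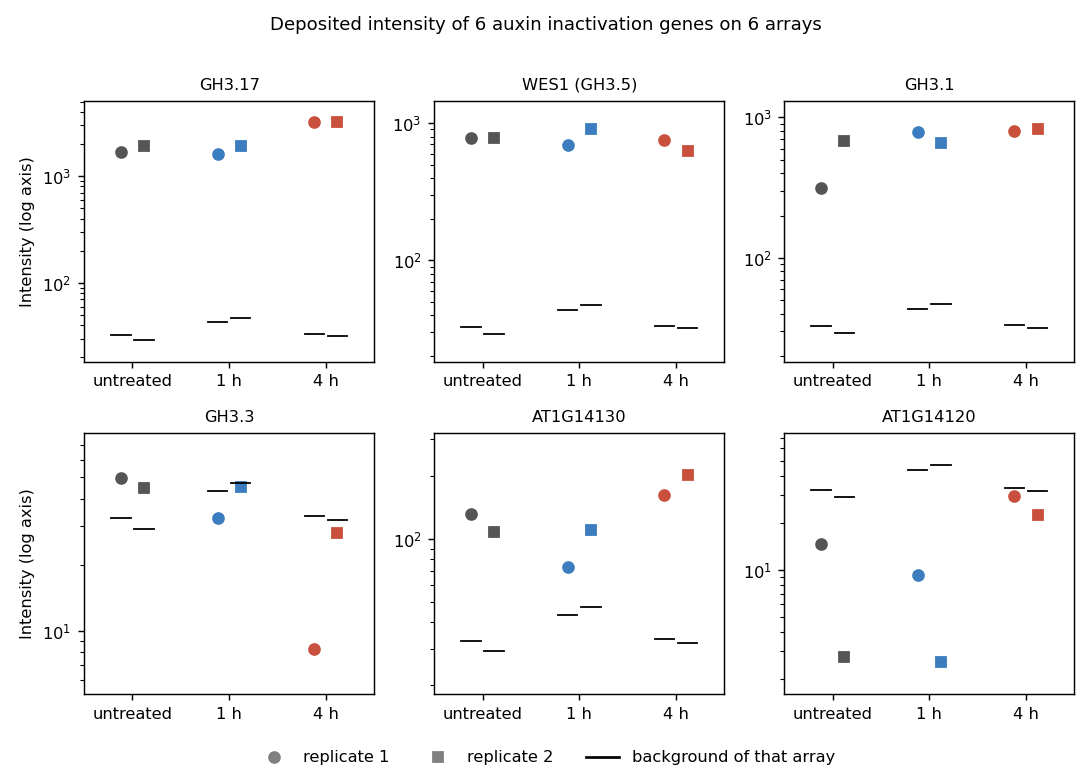
Deposited intensity (log axis, scaled separately in each panel) of the 6 genes on the untreated, 1 h and 4 h arrays. Circles are replicate 1, squares replicate 2, and black bars the background of each array. GH3.17 reads 3183 and 3192 at 4 h and at most 1934 on the other arrays, while AT1G14120 lies below background throughout.

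GH3.17 had its highest values at 4 h. It read 1677 and 1934 in the untreated replicates, 1602 and 1915 at 1 h, and 3183 and 3192 at 4 h. The untreated and 1 h values overlapped, and both 4 h values lay above all 4 others. Its log2 level was 10.83 ± 0.15 (SD, n = 2) untreated, 10.80 ± 0.19 at 1 h and 11.64 ± 0.00 at 4 h. Against untreated, the 4 h level was 1.75-fold higher, with a 95% confidence interval of 1.19 to 2.56 in the limma fit, and the log2 difference of 0.81 (SE 0.23) did not pass the adjusted threshold of 0.05 (limma adjusted p = 0.390, unadjusted p = 0.0110). Of all probe sets, 2.80% had a p as small or smaller in that comparison. Against 1 h the 4 h level was 1.78-fold higher (interval 1.22 to 2.61, limma adjusted p = 0.402). At 1 h the difference from untreated was -0.03 (SE 0.23), with a fold interval of 0.670 to 1.44. On the same 4 h arrays the summed intensity of both root cap markers was 3358 and 3395, against 4494 to 4612 untreated and 5471 to 6705 at 1 h. The markers differed: scpl48 read 2380 and 2689 at 4 h and 3852 and 3841 untreated, while AT1G65570 read 978 and 706 at 4 h and 643 and 771 untreated. RCA, a gene of green tissue, read 44.3 and 72.2 at 4 h and 31.6 to 48.3 on the other arrays. The part of these shifts in the GH3.17 result was not tested.

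WES1, whose enzyme acts on auxin and on salicylic acid, did not share that course. It read 780.1 and 785 untreated, 692 and 915 at 1 h, and 749.6 and 626 at 4 h. The 1 h values spanned those of untreated cells, and the 4 h values lay just below them. The 4 h level was 0.892 times the untreated level, with an interval of 0.594 to 1.34, so a rise of the size measured for GH3.17 lies outside the interval (limma adjusted p = 0.897). The difference was 0.05 (SE 0.24) at 1 h against untreated and -0.22 (SE 0.24) at 4 h against 1 h. Whether GH3.17 and WES1 differ in their response was not tested, and over 6 arrays their log2 levels had a Pearson r of -0.41, given as a description.

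GH3.1 varied most within the untreated pair. It read 313 and 682 untreated, 792 and 654 at 1 h, and 806 and 823 at 4 h. Untreated replicate 1 stood apart, while untreated replicate 2 fell between the 1 h values. The actin ratio also differed most within this pair, while the GAPDH ratio differed least there. The GAPDH ratio was 3.11 and 3.41 untreated, 4.65 and 3.26 at 1 h, and 3.15 and 4.32 at 4 h. The part of RNA quality in the result was not tested. The mean log2 level was 8.91 ± 0.74 (SD, n = 2) untreated, 9.54 ± 0.19 at 1 h and 9.70 ± 0.02 at 4 h. The 4 h level was 1.72-fold the untreated level with an interval of 0.937 to 3.18 (limma adjusted p = 0.596). That difference, 0.79 (SE 0.37) on the log2 scale, was 0.26 (SE 0.25) without untreated replicate 1 and 1.32 (SE 0.25) without untreated replicate 2. For 1 h against untreated, the 0.62 (SE 0.37) became 0.10 and 1.16 in the same order of omission.

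**Figure D2:**
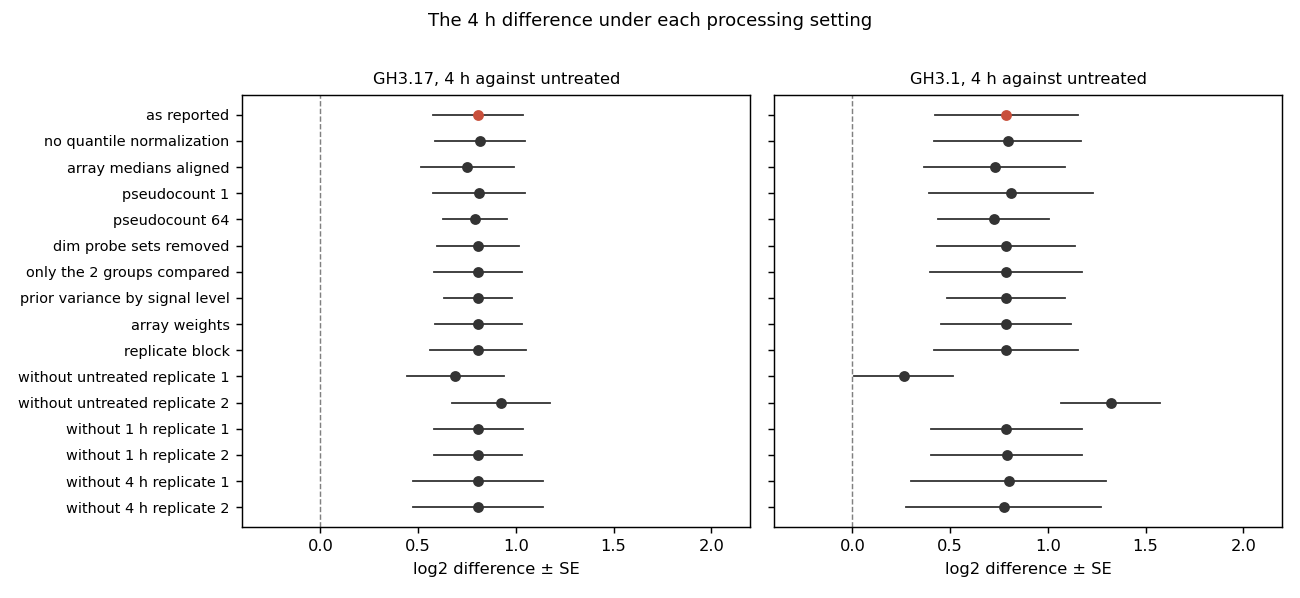
Log2 difference between 4 h and untreated arrays, with its standard error as bars, for GH3.17 (left) and GH3.1 (right) as reported (red) and under 15 other settings of the processing. GH3.17 stays between 0.69 and 0.92, while GH3.1 reads 0.26 or 1.32 depending on which untreated array is left out.

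GH3.3 was close to background wherever it was detected. It read 49.8 and 44.9 untreated, 32.8 and 45.2 at 1 h, and 8.26 and 28.0 at 4 h. Both untreated values exceeded their background, and no dexamethasone array did, with the 1 h arrays also having the higher background. A bound was therefore taken, dividing the untreated mean by the level at which a probe set exceeds background on the other arrays. On that measure the untreated mean of GH3.3 was at least 1.38-fold the 4 h level and at least 1.19-fold the 1 h level. These bounds allow for background and not for the spread between arrays. The fitted log2 difference at 4 h against untreated was -1.06, with an interval of -1.89 to -0.24 (limma adjusted p = 0.441, unadjusted p = 0.0193). At 1 h against untreated it was -0.41, with an interval of -1.24 to 0.41 that covers both directions (limma adjusted p = 0.940). The 4 h difference from untreated has the opposite sign to that of GH3.17. Both later groups lay below background, so no difference between them is given.

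Of the oxidase genes AT1G14130 was detected and its neighbour was not. AT1G14130 read 132 and 107 untreated, 73.4 and 110.0 at 1 h, and 161 and 201 at 4 h. The untreated and 1 h values overlapped, and both 4 h values were the highest of the 6. Its log2 level was 7.10 ± 0.25 (SD, n = 2) untreated, 6.66 ± 0.39 at 1 h and 7.63 ± 0.21 at 4 h. From 1 h to 4 h the level was 1.95-fold higher, with an interval of 1.20 to 3.16 (log2 difference 0.96, SE 0.29, limma adjusted p = 0.420, unadjusted p = 0.0142). Against untreated the 4 h level was 1.44-fold higher with an interval of 0.888 to 2.33 (limma adjusted p = 0.667), and the 1 h difference was -0.44 (SE 0.29). The signal of AT1G14130 was 1.70 to 6.30 times background and lowest in that ratio on the 1 h arrays.

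AT1G14120 read 14.7 and 2.75 untreated, 9.23 and 2.55 at 1 h, and 29.7 and 22.5 at 4 h. All 6 values were below background, so no fold is given. The 4 h values were the highest, at 0.891 and 0.705 times the background of their arrays.

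**Figure D3:**
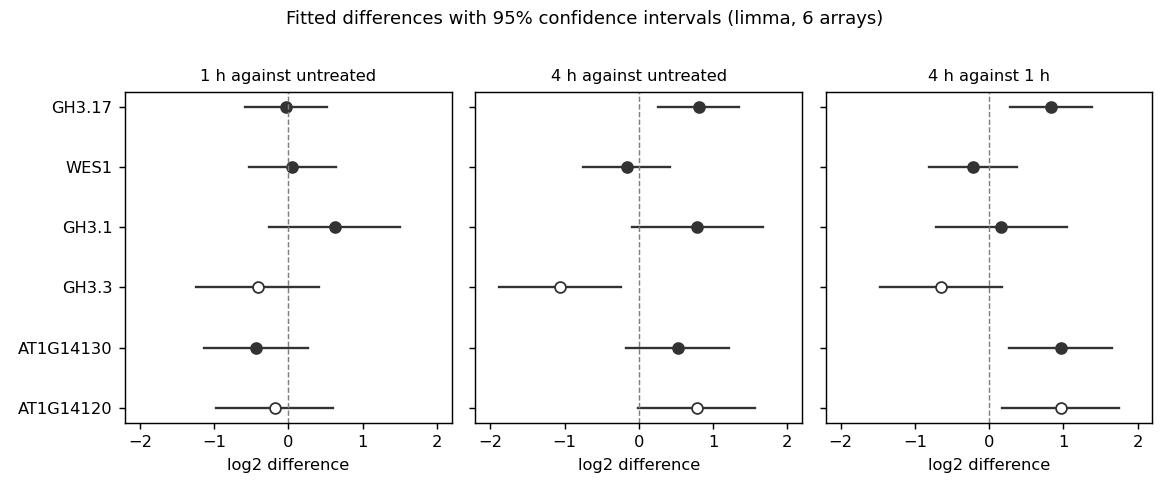
Log2 differences of the 6 genes in the 3 comparisons, with 95% confidence intervals from the limma fit over 6 arrays. Filled points mark genes above background in both groups on at least 1 array, open points those below it on every array of 1 or both groups. The GH3.17 interval lies above 0 in both comparisons with 4 h and spans 0 at 1 h. Those of AT1G14130 and AT1G14120 also lie above 0 at 4 h against 1 h, and that of GH3.3 lies below 0 at 4 h against untreated. Each interval is for 1 gene alone, without adjustment over probe sets, and no difference passed the adjusted threshold.

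Read against all probe sets, the counts were as follows, with overlap between groups judged on normalized log2 values. At 1 h against untreated, 0 of the 6 genes passed in limma, where 0% of the 22746 probe sets did. At an unadjusted p under 0.05 there were 0 of 6, against 5.78% of probe sets. Only GH3.3 had groups that did not overlap, lower at 1 h, as did 15.7% of probe sets in that direction; its deposited intensities overlapped. In the other direction there were 0 of 6, against 15.5% of probe sets. The median log2 difference of the 6 genes was -0.11 and that of all probe sets 0.00.

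At 4 h against untreated, 0 of 6 passed, with 0.0044% of probe sets passing. GH3.17 and GH3.3 had an unadjusted p under 0.05, against 9.08% of probe sets. GH3.17, GH3.1, AT1G14130 and AT1G14120 had both 4 h values above both untreated values, 4 of 6, where 20% of probe sets did. WES1 and GH3.3 had them below, 2 of 6, where 20.6% did. The median log2 difference was 0.65, against -0.01 for all probe sets, but it includes AT1G14120 and GH3.3, which lay below background in 1 or both groups.

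At 4 h against 1 h, 0 of 6 passed, with 0.022% of probe sets passing. GH3.17, AT1G14130 and AT1G14120 had an unadjusted p under 0.05, 3 of 6, against 9.24% of probe sets, and only the first 2 of these were detected. GH3.17, GH3.1, AT1G14130 and AT1G14120 had groups that did not overlap, higher at 4 h, where 21.8% of probe sets did. In the other direction there were 0 of 6, against 22.1% of probe sets, although both deposited 4 h intensities of GH3.3 were below those at 1 h. The median difference was 0.50, against 0.00 for all probe sets. These comparisons share arrays, so they do not count as separate observations of the late arrays.

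Further loci of the GH3 family, listed from general knowledge because the gene table names most of them by locus alone, included AT1G23160, whose fitted 4 h difference from untreated was larger than that of GH3.17, a gap that was not tested. Of the 15 listed, 7 had a named probe set and 3 exceeded background on all 6 arrays. Whether the enzymes of these further loci act on auxin was not tested. AT1G23160 read 2019 and 3969.7 untreated, 4050.0 and 2973 at 1 h, and 7976 and 7523 at 4 h. Both 4 h values were well above the 4 others, and untreated replicate 1 was the lowest, as for GH3.1. The 4 h level was 2.65-fold the untreated level with an interval of 1.39 to 5.04 (log2 difference 1.40, SE 0.39, limma adjusted p = 0.375). Without untreated replicate 1 the difference was 0.85, and without untreated replicate 2 it was 1.97.

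AT5G51470 followed a course like that of GH3.17. It read 1352 and 1610.2 untreated, 1107 and 1316 at 1 h, and 2529 and 2259 at 4 h. The 4 h values were again the highest and the 1 h values the lowest. From 1 h to 4 h it was 1.94-fold higher, with an interval of 1.32 to 2.85 (limma adjusted p = 0.351). Against untreated the fold was 1.61 with an interval of 1.09 to 2.36 (limma adjusted p = 0.454).

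**Figure D4:**
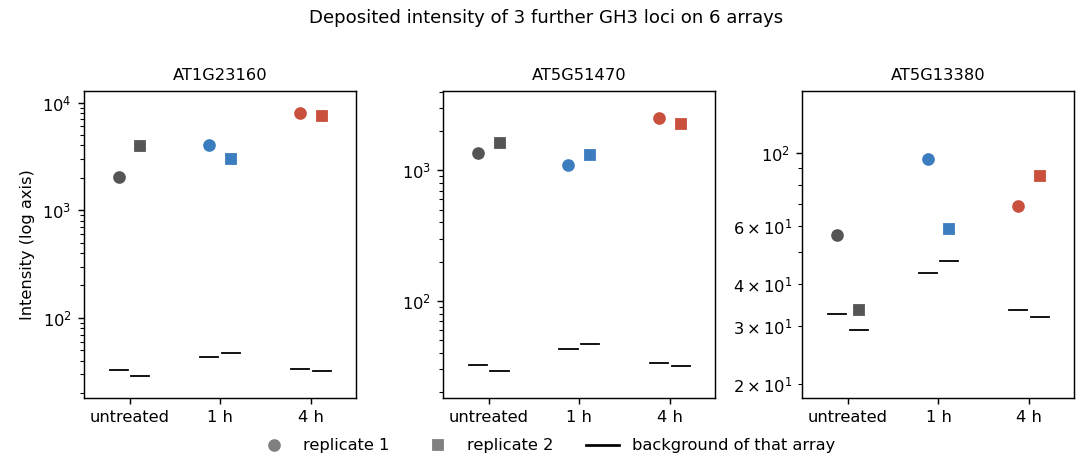
Deposited intensity (log axis, scaled separately in each panel) of the 3 further GH3 loci above background on all 6 arrays, with circles for replicate 1, squares for replicate 2 and black bars for the background of each array. AT1G23160 and AT5G51470 have both 4 h values above all earlier ones, while the 1 h and 4 h values of AT5G13380 overlap.

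AT5G13380 was much weaker, with 33.4 to 56.3 untreated, 58.8 to 95.9 at 1 h and 68.9 to 84.9 at 4 h, and its 4 h difference from untreated was 0.53 (SE 0.31). GH3.9, above background in both groups, differed by 0.54 (SE 0.26), with 67.3 and 78.1 at 4 h against 39.2 and 44.0 untreated. AT5G13350, AT1G48660 and AT1G48670 exceeded background on no array. Over all 11 measured GH3 genes, 9 had a higher mean at 4 h than untreated and 8 had groups that did not overlap in that direction, where 20% of probe sets did; 2 of these 8 were never above background. In limma 0 of the 11 passed in any comparison. At an unadjusted p under 0.05 there were 0 at 1 h against untreated, 5 at 4 h against untreated and 3 at 4 h against 1 h, where 5.78%, 9.08% and 9.24% of all probe sets were. The 5 include GH3.3, which was lower at 4 h, and AT1G48660, which was not detected. The GH3.6 gene was not analysed here.

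Among the few genes of other auxin routes that could be followed, those named here had smaller fitted differences than GH3.17 at 4 h against untreated. These gaps were not tested. For the glucosyltransferases that attach glucose to auxin, IAGLU read 552 and 545 untreated and 541 and 469 at 4 h, with a difference of -0.08 (SE 0.22) and a fold interval of 0.651 to 1.37. UGT74D1 read 111 and 86.6 untreated and 98.7 and 64.7 at 4 h, with a difference of -0.28 (SE 0.29). The biosynthesis gene YUC2 differed by 0.10 (SE 0.39), with untreated values of 119 and 46.2. IAA30, a repressor of auxin response, read 46.8 and 108 untreated, 123 and 189 at 1 h, and 80.0 and 68.5 at 4 h. Its values at 1 h were the highest, with a difference of 0.88 (SE 0.36) from untreated at 1 h and of 0.00 (SE 0.36) at 4 h. The former was 0.45 without untreated replicate 1 and 1.29 without untreated replicate 2. At 4 h against 1 h, IAA30 differed by -0.89 (SE 0.36, limma adjusted p = 0.526), in size no smaller than the 0.83 (SE 0.23) of GH3.17.

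By list, 3 of 6 genes of auxin glucosylation and methylation, 4 of 14 of biosynthesis and 7 of 28 Aux/IAA genes had a named probe set. In each of these lists 0 members passed in limma in either direction in any comparison, and at an unadjusted p under 0.05 only the Aux/IAA list had a member, 1 of 7 in each comparison, where 5.78%, 9.08% and 9.24% of all probe sets were. At 4 h against untreated that member was not IAA30. The median differences of the lists at 4 h against untreated were -0.08, 0.04 and 0.00. The type-A response regulators, which cytokinin induces, had 2 of 10 members measured, ARR15 and RR16. Neither exceeded background on all 6 arrays, and 0 passed in limma, with 1 of 2 at an unadjusted p under 0.05 at 1 h against untreated, against 5.78% of all probe sets, and 0 in the other comparisons. The amidohydrolases that release auxin from its conjugates, the auxin carriers, receptors and response factors had no named probe set and were not analysed here.

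Of the 4 detected genes, GH3.17, GH3.1 and AT1G14130 were highest on the 4 h arrays and WES1 on 1 h replicate 2, with differing levels on the other arrays. GH3.17 and AT1G14130 had a Pearson r of 0.81 over the 6 arrays, GH3.17 and GH3.1 of 0.52, and GH3.1 and AT1G14130 of -0.05. For WES1 it was -0.30 with GH3.1 and -0.34 with AT1G14130. These values describe 6 arrays that share groups, and they have no p. The genes whose profile was most like a member's were sought among 4460 named probe sets above background on all arrays with an SD of at least 0.2. For GH3.17 they were AT1G06000, AT2G26380 and AT1G07135 (r = 0.989, 0.989 and 0.987). For AT1G14130 they were AT1G60995, AT1G48840 and AT4G31860 (0.994, 0.991 and 0.985). GH3.1 was closest to AT1G18070, AT1G80280 and AT3G05500 (0.995, 0.990 and 0.983), and WES1 to AT1G26850, AT5G63280 and AT3G60210 (0.991, 0.981 and 0.977). AT1G06000 read 107 and 143 untreated, 109 and 125 at 1 h, and 330.2 and 294 at 4 h, with both 4 h values above all others. It was picked for its likeness to GH3.17 on these same arrays, so this course follows from the choice. The high r values likewise come with taking the best 3 of 4460 over 6 arrays. With 6 arrays the order of such a ranking is loose: over 8 other settings, 0 to 2 of the 3 stayed in the top 3 for GH3.17, GH3.1 and WES1, and 0 to 3 for AT1G14130.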

How the data were processed

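RNA of 6 samples was hybridised to Affymetrix ATH1 arrays after two-cycle biotin labelling, per the labels. The deposited table gives 1 linear intensity per probe set and array; the summarisation software is not given in the sources used here. Every deposited intensity column had a mean of 250.03 after trimming 2% at each end, which shows a scaling to 1 target before deposit. Of 22810 rows, 64 controls were left out. From there, log2(intensity + 16) was taken and quantile normalized, since column medians spanned 0.215. The linear model of limma 3.58.1 (R 4.3.3) had 1 mean for each group over the 6 arrays, p-values were adjusted over 22746 probe sets by the Benjamini-Hochberg method, and tests are two-sided. The tests measure the spread between arrays, 2 per group, which limits the precision. For each probe set, limma draws that spread towards a prior variance from all probe sets, with 3 residual and 3.47 prior degrees of freedom. Standard errors and intervals carry that prior too. With 2 arrays against 2, no exact permutation test can pass 0.05. Intervals are at the 95% level for each probe set alone, without adjustment over probe sets. The fold of dim genes is understated by the pseudocount.

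Where 1 group lay below background on both arrays, the other group's mean was divided by the dim group's level, raised on each array to the lowest normalized level above background there. Names come from the platform annotation of 2016 and RefSeq (TAIR10.1): 13513 probe sets had 1 gene, 503 several and 8730 none. Of 140 entries in 16 lists, 31 were measured. The members, lists, background measure and alternatives were chosen with earlier results of these data known. Named were the 6 members, the 3 genes most like each detected member, and from each list up to 3 genes above background on all arrays with the largest 4 h difference; other genes were named after their values were seen. The fit was also run on simulated data, and no result above rests on that run. Alternatives were other normalizations, pseudocounts, a filter on dim probe sets, the 2 groups alone, another prior variance, array weights, a replicate block and leaving out each array. Slide and scan batches were not known.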

Additional observations from a re-analysis of the deposited data

How the results depend on the processing

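None of the 6 genes passed the threshold under any of the 15 settings run, and 261 of 267 recomputed differences kept their direction. The exceptions were all differences at 1 h against untreated that were close to 0. For WES1 the difference was -0.13 with array medians aligned, and leaving out each array gave -0.14 to 0.24. Leaving out each array gave -0.16 to 0.10 for GH3.17 and -0.56 to 0.19 for AT1G14120. The adjusted p of GH3.17 at 4 h against untreated ranged from 0.0996 to 0.950. Over all probe sets at 4 h against untreated, the count of 1 became 0 with a pseudocount of 1, the 2 groups alone or the replicate block, 8 with dim probe sets removed, 108 with a pseudocount of 64, and 123 with limma's prior variance set by signal level. At 4 h against 1 h the count of 5 became 0 with a pseudocount of 1 or the 2 groups alone, 17 with dim probe sets removed, 8 with array weights, 42 with a pseudocount of 64, and 53 with that prior variance. Leaving out any 1 array gave 0 in every comparison. The cause was not tested. Of the other named genes, 13 of 315 differences reversed. IAGLU at 1 h was -0.11 with medians aligned and -0.0238 to 0.19 with each array left out, and at 4 h -0.18 to 0.0148. Leaving out each array gave -0.29 to 0.80 for YUC2 at 1 h, -0.44 to 0.65 at 4 h and -0.37 to 0.0567 at 4 h against 1 h. It gave -0.26 to 0.83 for AT1G23160 at 1 h and -0.21 to 0.37 for AT5G13380 at 4 h against 1 h. IAA30 at 4 h was 0.0292 without quantile normalization, 0.00976 with a pseudocount of 1 and -0.43 to 0.41 with each array left out. The replicate numbers were not treated as pairs: deviations of same-numbered arrays correlated at 0.12, -0.02 and -0.04, and with the replicate block GH3.17 at 4 h differed by 0.81 (SE 0.25, limma adjusted p = 0.475). AT1G14120 was removed by the filter on dim probe sets, so it has 14 settings. Signal over background limits GH3.3 and AT1G14120 on nearly every array.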
